A study of Mus musculus with 10 samples.

Results

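Interferon-stimulated genes are described here as a list of 35 mouse genes, chosen by name from the known interferon response and matched by Ensembl identifier to the 46517 genes counted. All 35 were found, and all 35 passed the filter on low counts in both comparisons between genotypes. The list holds 4 transcription factors, 5 immunity-related GTPases, 7 guanylate-binding proteins, 3 IFIT proteins, 4 nucleic acid sensors, the ISG15 modifier and its protease, 5 antiviral effectors and 5 further genes. Of the effectors, Mx2 is annotated as a polymorphic pseudogene. Each member was read in single endothelial cells from mouse ear skin, both one by one and as a summed level, the counts per 1e+06 reads (CPM) of all 35 members added up within a cell.

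The study used Smart-Seq2, which reads full-length cDNA of sorted cells in plates, to profile endothelial cells of the dermal lymphatic vessels (LECs) and of blood vessels (BECs) in a model of PIK3CA-driven lymphatic malformation. Mutant mice (n = 5) were Pik3caH1047R;Cdh5-CreERT2, Cre-positive, and received 4-hydroxytamoxifen (4-OHT) on the ear skin at 3 weeks of age. Of the control mice read here (n = 2), control 2 was a Cre-negative animal treated with 4-OHT in the same way, whereas control 1 was an untreated C57BL/6J mouse. All 7 mice were 5 weeks old. Cdh5-CreERT2 acts throughout the endothelium, so both LECs and BECs of the mutants could carry the transgene. Another control mouse, control 3, was not analysed here. The methods place all mice on a C57BL/6J background. Control 1 differed from control 2 in breeding and in lacking 4-OHT, effects that cannot be told apart here, and every comparison between genotypes below rests on these 2 animals. By the plate identifiers, the controls and mutant 5 belong to one number series and mutants 1 to 4 to another, so that plate series and genotype can be told apart only through mutant 5.

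After removal of cells with few reads or genes, 3248 cells remained from 9 plates, and no well label was repeated within a plate. A cell was counted as an LEC where Prox1, Flt4 and Mmrn1 together reached 300 CPM and exceeded the sum of Flt1, Emcn and Podxl, and as a BEC in the reverse case. This gave 1641 LECs (175 to 367 per mouse) and 1490 BECs (157 to 330 per mouse), although the labels name only LECs as sorted cells. Of the LECs outside the high tail defined below, 63.8% also reached 300 CPM for the BEC genes, so that the higher of both sums, not absence of the other, defined the class. No member was used to define the classes. Reads summed over the cells of a mouse ran from 55616045 to 194353210 in LECs and from 38402388 to 99630824 in BECs.

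Interferons are secreted signals that warn cells of viral and other infections. Type I interferons act through IFNAR receptors and JAK kinases, and their target genes often carry the interferon-stimulated response element (ISRE). Interferon gamma acts at gamma-activated sites (GAS) and, by way of IRF1, favours the GTPases that attack vacuoles of intracellular parasites. Endothelial cells of both kinds are known to respond to either signal.

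The promoters of the members held these elements more often than promoters in general. RefSeq promoters (GRCm38.p6, 300 bases each, 250 of them before the start site) were given for 25 members. Not matched were Gbp4, Gbp6, Gbp9, Iigp1, Mx1, Mx2, Oas2, Parp14, Rtp4 and Usp18. The ISRE core, searched as GAAANNGAAA on both strands, was found in 15 of the 25 members, and in 3.99% of the 27025 genes with a promoter (3.44% of all 32851 promoters). The GAS core, searched as TTCNNNGAA, which reads alike on both strands, was found in 9 of the 25 members and in 9.55% of genes (8.30% of all promoters). Both cores were present in Bst2, Gbp5, Gbp7, Igtp and Irgm2, and neither in Ifi44, Ifi47, Irf7, Irf9, Oasl2 and Xaf1. The only ISRE core of Ifih1 and of Ddx58, and the only GAS core of Ifi35, lay after the start site. The members came from the known response, so this frequency describes the list and was not tested.

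The 140 bases before the start site are shown for 7 members on which the results below turn, in 5′ to 3′ direction of the gene, with each ISRE or GAS core in capitals. Isg15 (chr4:156200819-156200958, minus strand), Ifit1 (chr19:34640749-34640888, plus strand) and Rsad2 (chr12:26456453-26456592, minus strand) carried ISRE cores alone. Bst2 (chr8:71537473-71537612, minus strand), Gbp7 (chr3:142530196-142530335, plus strand) and Igtp (chr11:58199416-58199555, plus strand) carried both, and in Bst2 the cores overlapped. Irf1 (chr11:53769874-53770013, plus strand) carried a GAS core alone.
Isg15: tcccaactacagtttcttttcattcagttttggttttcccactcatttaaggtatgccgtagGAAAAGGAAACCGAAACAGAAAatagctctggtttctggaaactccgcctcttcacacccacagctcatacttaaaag
Ifit1: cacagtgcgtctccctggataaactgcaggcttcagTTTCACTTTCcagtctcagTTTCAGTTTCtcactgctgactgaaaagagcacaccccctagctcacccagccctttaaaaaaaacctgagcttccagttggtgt
Rsad2: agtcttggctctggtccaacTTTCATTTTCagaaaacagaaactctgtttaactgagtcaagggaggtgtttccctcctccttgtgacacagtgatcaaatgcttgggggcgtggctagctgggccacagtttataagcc
Bst2: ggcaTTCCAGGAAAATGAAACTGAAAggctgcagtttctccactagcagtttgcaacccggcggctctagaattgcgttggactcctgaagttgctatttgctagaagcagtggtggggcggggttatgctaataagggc
Gbp7: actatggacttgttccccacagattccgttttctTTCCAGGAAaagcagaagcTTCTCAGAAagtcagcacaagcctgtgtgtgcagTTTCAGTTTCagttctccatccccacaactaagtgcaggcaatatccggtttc
Igtp: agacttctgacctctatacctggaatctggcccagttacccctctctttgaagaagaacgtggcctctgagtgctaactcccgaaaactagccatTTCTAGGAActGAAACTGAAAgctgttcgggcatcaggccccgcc
Irf1: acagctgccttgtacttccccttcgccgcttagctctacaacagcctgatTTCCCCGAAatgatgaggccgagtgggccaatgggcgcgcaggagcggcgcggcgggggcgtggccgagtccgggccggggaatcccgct

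The members were expressed at a higher level in BECs than in LECs of every mouse. The mean summed level in BECs was 4407 and 4281 CPM per cell in control 1 and control 2, and 3067, 3407, 3598, 3882 and 2410 CPM in mutants 1 to 5. In LECs it was 1339 and 1046 CPM in the controls and 1108, 1204, 1211, 1073 and 926 CPM in the mutants. BECs therefore held 2.60 to 4.09 times the level of LECs from the same animal, a mean of 3.17 ± 0.533 (SD, n = 7 mice).

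Taken singly, 33 of 35 members were lower in LECs than in BECs and none was higher (edgeR quasi-likelihood test with mouse as a block, adjusted p under 0.05), against 10.2% of 21927 genes called lower, 11.8% called higher and 22% called in all. Of the 33, 27 kept the call in every other setting tried over both genotypes, and 13 members were called in control mice alone. The median log2 difference of the members was -1.90, against 0.02 for all genes. In 31 members the LEC value lay below the BEC value in every mouse, and in 21 members the ranges of LECs and BECs over the 7 mice did not overlap, which held for 4.51% of all genes in that direction. Ifit2 and Mx1 did not pass the test. Ifit2, which binds viral RNA, had log2 differences of -0.34 ± 0.15 (SE), and Mx1, which reached at most 2.71 CPM in any mouse, of -0.62 ± 1.42.

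**Figure D1:**
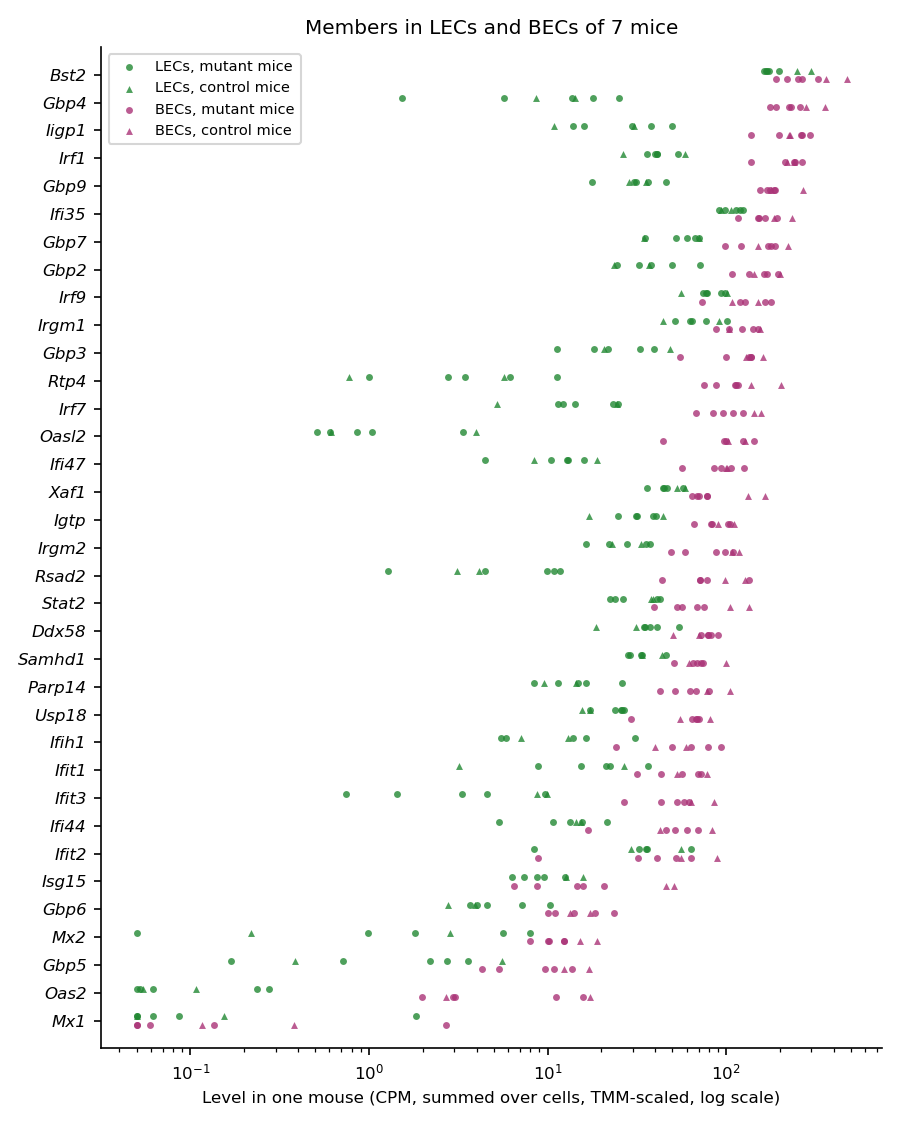
Level of each of the 35 members in LECs (green) and BECs (purple) of 7 mice, as CPM summed over the cells of a mouse on a log axis, with triangles for control and circles for mutant mice; values under 0.05 are drawn at 0.05. Genes are ordered by their mean in BECs, and 21 members show no overlap between the classes.

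The 5 largest differences were those of Oasl2, Oas2, Rtp4, Gbp4 and Rsad2. After scaling by the trimmed mean of M-values over both classes, Oasl2, an oligoadenylate synthetase-like protein, was at 3.95 and 0.616 CPM in LECs of the controls and at 0.859, 3.34, 1.05, 0.604 and 0.510 CPM in LECs of mutants 1 to 5. In BECs of the same mice it was at 127.9 and 102.7 CPM, and at 99.3, 142.5, 124.7, 97.7 and 44.4 CPM. The lowest BEC value thus exceeded the highest LEC value, and the log2 difference was -6.45 ± 0.37 (adjusted p = 8.1e-06).

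Oas2, which makes the oligoadenylate messenger that activates RNase L, lay between 0.0373 and 0.276 CPM in LECs and between 1.99 and 17.3 CPM in BECs. Its log2 difference was -5.89 ± 0.64 (adjusted p = 0.00021). Rtp4, a chaperone of membrane receptors, lay between 0.770 and 11.2 CPM in LECs and between 75.2 and 202.2 CPM in BECs, a log2 difference of -5.10 ± 0.55 (adjusted p = 0.00021). Both genes showed no overlap between the classes, but Rtp4 shares 13.9% of its exonic bases with an overlapping predicted gene.

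Gbp4, a guanylate-binding GTPase of host defence against vacuolar pathogens, was at 14.2 and 8.66 CPM in LECs of the controls and at 18.1, 13.7, 25.2, 1.54 and 5.74 CPM in LECs of the mutants. In BECs it was at 357.8 and 280.3 CPM in the controls and at 176.6, 226.2, 257.9, 231.0 and 189.0 CPM in the mutants. The log2 difference was -4.59 ± 0.48 (adjusted p = 0.00016). Rsad2, which encodes viperin, an enzyme that makes a chain-terminating nucleotide, was at 4.15 and 3.11 CPM in LECs of the controls and at 9.93, 4.44, 11.8, 1.28 and 10.9 CPM in the mutants. In BECs it lay between 43.6 and 135.0 CPM, without overlap with LECs, and the log2 difference was -3.97 ± 0.60 (adjusted p = 0.0014).

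The 12 GTPases were all lower in LECs. Guanylate-binding proteins differed by -4.59 (Gbp4) to -1.54 (Gbp7), and immunity-related GTPases, which include Iigp1 at -3.24 ± 0.23, by -3.24 to -0.83 (Irgm1). Of the transcription factors, Irf1 and Irf7 were lower by log2 differences of -2.41 ± 0.16 and -2.84 ± 0.32, while Stat2 and Irf9 differed by -1.13 ± 0.24 and -0.64 ± 0.18. Among the sensors of viral RNA, Ifih1 (MDA5) differed by -2.25 ± 0.30 and Ddx58 (RIG-I) by -1.10 ± 0.11. The smallest differences that passed the test were those of Bst2, or tetherin, at -0.53 ± 0.08, of Irf9 and of Ifi35 at -0.65 ± 0.13. Igtp and Irgm2, as well as Gbp4 and Gbp9, overlap on the genome, so that reads of their shared exons cannot be assigned with certainty.

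Per length, the 2 highest members were the same in both classes, while the order below them differed. Bst2 was the highest member in both, at 266.1 ± 77.5 FPKM (CPM divided by exon length in kilobases) in LECs and 393.3 ± 142.9 FPKM in BECs (SD, n = 7 mice), followed in both by Ifi35 at 61.5 ± 6.10 and 98.9 ± 24.0 FPKM. Bst2 stood apart from Ifi35 in every mouse of both classes. Below them, Igtp, Gbp2, Irf9 and Isg15 in LECs (16.0, 15.5, 15.2 and 13.8 FPKM) and Rtp4, Iigp1 and Gbp2 in BECs (77.1, 73.4 and 62.9 FPKM) did not differ beyond their SDs. Oas2 and Mx1 were the lowest in LECs, at 0.0265 and 0.0842 FPKM, and Mx1 was the lowest in BECs, at 0.132 FPKM.

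Among other genes of the pathway, receptors differed unevenly between the classes. Of 79 further interferon-related genes listed for comparison, 72 were tested, 42 were lower in LECs and 3 were higher. Ifngr1, a chain of the interferon gamma receptor, was lower by a log2 difference of -1.35 ± 0.08 (adjusted p = 8.9e-06) and the kinase Jak2 by -1.55 ± 0.22 (adjusted p = 0.00097). Ifnar2, a chain of the type I receptor, differed by -0.25 ± 0.07 (adjusted p = 0.025). Its partner Ifnar1 at 0.02 ± 0.14 did not pass the test (adjusted p = 0.94). Irf8, Ikbke and Ifit1bl1 were the genes higher in LECs.

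In LECs, with all cells of a mouse pooled, the median and the single highest cell separated the genotypes, in opposite directions. The mean and the 95th percentile did not. The median LEC held 1016 and 933 CPM in the controls and 770, 712, 767, 767 and 683 CPM in mutants 1 to 5, all mutants below both controls. The mean did not separate the genotypes, with 1193 ± 207 CPM in the controls (SD, n = 2) and 1104 ± 116 CPM in the mutants (SD, n = 5), a ratio of 0.926. The highest single LEC reached 6970 and 5502 CPM in the controls and 17470, 16956, 18733, 13877 and 8783 CPM in the mutants, all above the controls. A maximum depends on the number of cells, and mutants 3 and 5 had 363 and 367 LECs from 2 plates, against 183 and 175 in the controls. The first plate of mutant 5 alone reached 6838 CPM, below control 1. The 95th percentile was 3541 and 2378 CPM in the controls and 2673, 3954, 3228, 2950 and 2455 CPM in the mutants, and the 99th percentile of mutant 4, at 5888 CPM, lay below that of control 1, at 6191 CPM. Values of a sum over chosen genes are given without a test.

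The share of the summed level carried by the highest cells showed the same order. In the top 1%, a few cells per mouse, this share rests largely on the highest cells just given and is no separate evidence. The top 1% of LECs carried 5.47% and 5.53% of the level in the controls and 10.4% to 13.2% in mutants 1 to 4 and 8.77% in mutant 5. The top 5% carried 20.8% and 17.2% in the controls and 25.3% to 32.0% in the mutants. In both measures every mutant lay above both controls, mutant 5 of the controls' plate series by the least in the top 1%. In BECs the top 1% carried 4.70% and 4.39% in the controls and 3.45% to 7.33% in the mutants, and the groups overlapped.

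In BECs the median, the mean and the 95th percentile lay lower in the mutants, but the highest cells did not. The median BEC held 3451 and 3504 CPM in the controls and 2318, 2599, 2762, 2988 and 2108 CPM in the mutants. The mean was 4344 ± 89.4 CPM in the controls and 3273 ± 566 CPM in the mutants, a ratio of 0.753, with all mutants below both controls. The highest single BEC reached 17268 and 15738 CPM in the controls and 9688, 23527, 20448, 33358 and 12235 CPM in mutants 1 to 5, and the groups overlapped. The level in the 13 genes of a GTPase score (the 12 GTPases and Irf1) overlapped between the genotypes, from 1164 to 1942 CPM in the mutants against 2197 and 1830 CPM in the controls. The level in the 15 genes of an IFIT-type score (the IFIT proteins, sensors, Isg15, Usp18, Rsad2, Mx1, Mx2, Rtp4, Irf7 and Ifi44) did not overlap, at 501 to 1090 CPM against 1094 and 1143 CPM. In LECs both scores overlapped between the genotypes. Mutant 5, the only mutant of the controls' plate series, was the lowest mouse of all in the median and mean of both classes.

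**Figure D2:**
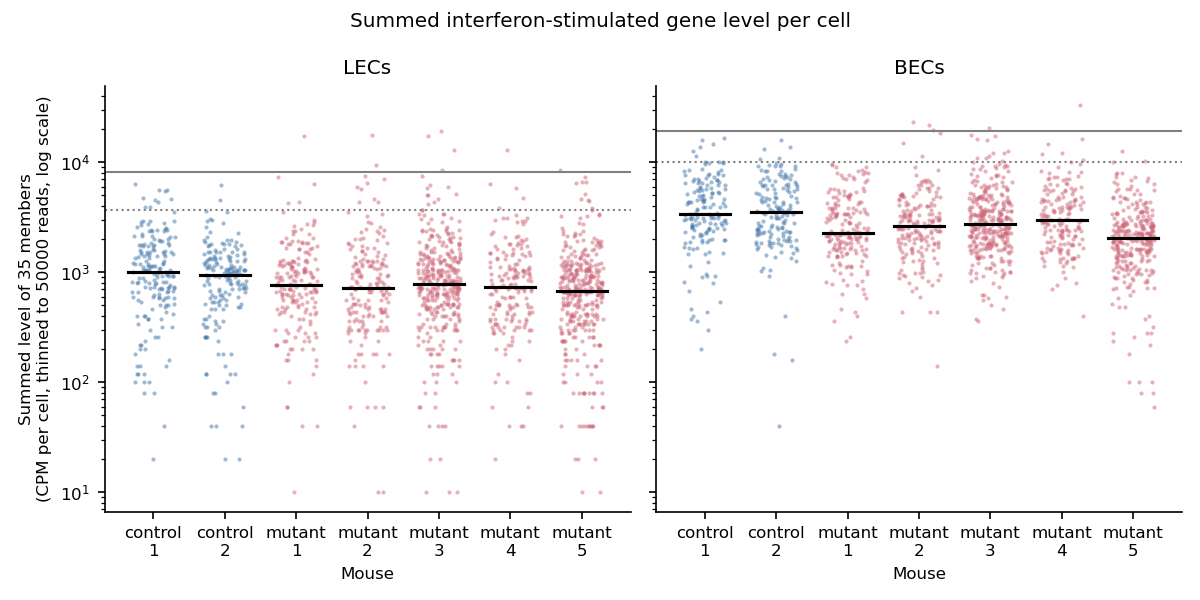
Summed level of the 35 members in each LEC (left) and BEC (right) by mouse, in CPM per cell after thinning each cell to 50000 reads, on a log axis; values under 10 are drawn at 10. Black bars are medians and the lines mark 3 (solid) and 2 (dotted) deviations above the typical cell. The cells above the solid line all come from mutant mice.

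To describe the high tail, each cell was thinned to 50000 reads, and a limit was set in each class at the typical mouse median plus 3 scaled median absolute deviations (MADs) on a log2 scale. The limit was 8128 CPM in LECs and 19116 CPM in BECs. In LECs, 9 of 1641 cells lay beyond it, 0 of 183 and 0 of 175 in the controls and 1 of 184, 2 of 187, 4 of 363, 1 of 182 and 1 of 367 in mutants 1 to 5. The shares in the mutants were 0.543%, 1.07%, 1.10%, 0.549% and 0.272%, while 0 cells in control 1 and control 2 allow a share of up to 1.64% and 1.71%. With these numbers of control cells, a share like that of the mutants could have gone undetected. The 95% Wilson interval of the highest share, in mutant 3, was 0.429% to 2.80%. Smart-Seq2 reads carry no molecular identifiers, and these intervals and limits cover counting error only.

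In BECs, 5 of 1490 cells lay beyond the limit, 3 of 184 in mutant 2, 1 of 330 in mutant 3 and 1 of 174 in mutant 4. Mutants 1 and 5 and both controls had 0, which allows up to 1.89% and 1.91% in the controls. In the counts as deposited, without thinning, 13 LECs and 3 BECs passed limits of 7161 and 21248 CPM, again none from a control mouse. Nearest to the limit, LECs lay at 7380, 7440 and 7540 CPM outside and at 8540, 8560 and 9480 CPM inside, so that no wide gap set the tail apart. BECs lay at 17200, 17580 and 18300 CPM outside and at 19820, 20380 and 21960 CPM inside.

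At 2 MADs (3706 CPM in LECs and 10005 CPM in BECs) the controls were no longer empty. In LECs, 10 of 183 and 2 of 175 control cells passed, 5.46% and 1.14%, against 2.72%, 5.35%, 3.86%, 2.75% and 3.00% in mutants 1 to 5. In BECs, 5.66% and 3.18% of control cells passed, against 0%, 3.26%, 3.94%, 4.02% and 0.990% in the mutants. The groups overlapped in both classes, and only the most extreme cells, of which there were few, were found in mutants alone.

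The tail cells carried many members at once. The 9 LECs had a read for 21 to 32 of the 35 members, and 12 to 23 members stood above the 95th percentile of all LECs. The leading member made up 7.89% to 23.7% of the summed level, and that of the summed level over all other LECs, Bst2, led none of them. The 5 BECs had a read for 25 to 32 members, and the leading member made up 7.49% to 30.8%.

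Of the 9 LECs, 4 were led by GTPases and drew at most 12% of their level from the IFIT-type genes, against 17.4% over all LECs. In CPM, their IFIT-type scores still lay above the mean over the LECs of any mouse (135 to 285 CPM). The tail cell of mutant 1, at 17470 CPM, held 12066 CPM in the GTPase score and 756 CPM in the IFIT-type score, with Gbp7 at 2408 CPM, Gbp4 at 1645 CPM and Igtp at 1434 CPM as its leading members. The other 3, all from the second plate of mutant 3, held 15719, 11244 and 5514 CPM in GTPases against 996, 559 and 1033 CPM in IFIT-type genes. The first of these, led by Iigp1 at 4165 CPM, drew 89.5% of its level from the GTPase score, whereas this score made up 35.6% of the level over all LECs.

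The other 5 tail LECs drew a larger share of their level from the IFIT-type group. A cell of mutant 3 from the first plate, with the highest level of any LEC at 18733 CPM, was led by Rsad2 at 2899 CPM, Ifit2 at 2039 CPM and Ifit1 at 1679 CPM, and held 9533 CPM in the IFIT-type score against 5917 CPM in GTPases. The cells of mutant 2 held 8066 and 2954 CPM in GTPases and 6656 and 5084 CPM in IFIT-type genes. The cell of mutant 4, led by the sensor Ifih1 at 1095 CPM, held 5581 and 5150 CPM, and that of mutant 5, led by Ifit1 at 1127 CPM, held 2488 and 4116 CPM.

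The BECs of the tail all held both groups. That of mutant 4, at 33358 CPM the highest cell of all, was led by Rsad2 at 5138 CPM and Ifi44 at 3338 CPM, and held 19250 CPM in IFIT-type genes against 10611 CPM in GTPases. In mutant 2, one cell drew 67.9% of its level from IFIT-type genes, led by Rsad2 at 6908 CPM, with 53849 reads in all, the fewest of any tail cell. The remaining 3 BECs held 8924 to 10483 CPM in GTPases and 7085 to 9374 CPM in IFIT-type genes. No tail BEC had an IFIT-type score under 12% of its level, as 4 tail LECs did. Over all cells, IFIT-type genes made up 25.2% of the level in BECs and 17.4% in LECs. A BEC of control 1 beyond 2 MADs, but outside the tail, stood at 8.44%. With 9 and 5 cells this contrast is given as a description.

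**Figure D3:**
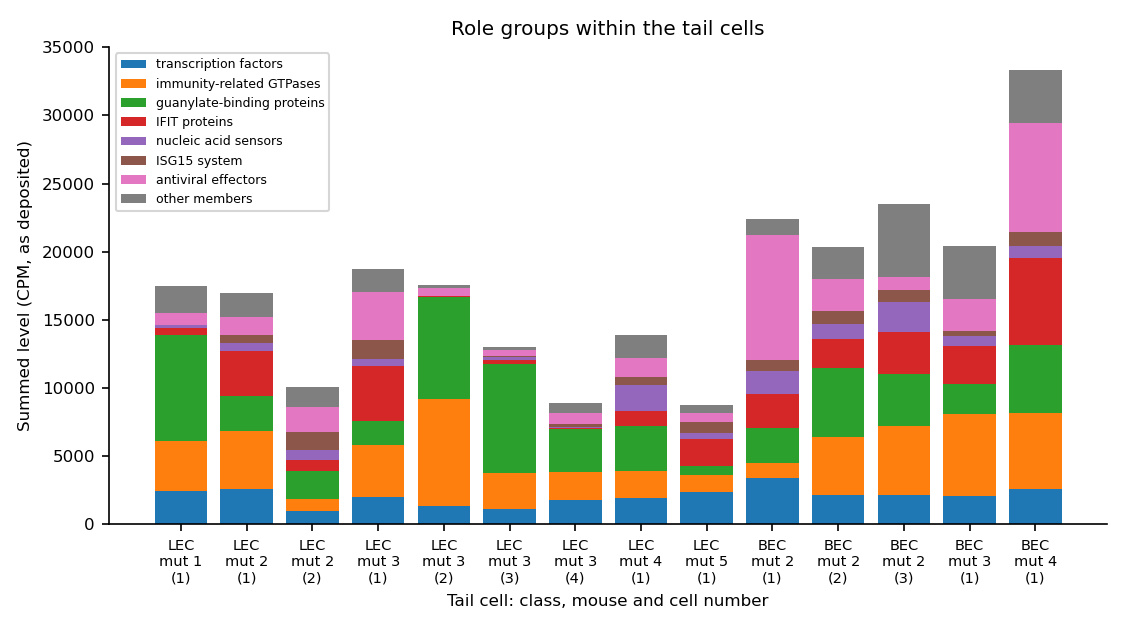
Summed level of the 9 tail LECs and 5 tail BECs, in CPM from the counts as deposited, split by the role of the members; each bar is 1 cell and its mouse is given below. Green and orange (GTPases) fill most of the bars of mutant 1 and of cells 2 to 4 of mutant 3, while the BECs and the other LECs are mixed.

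**Figure D4:**
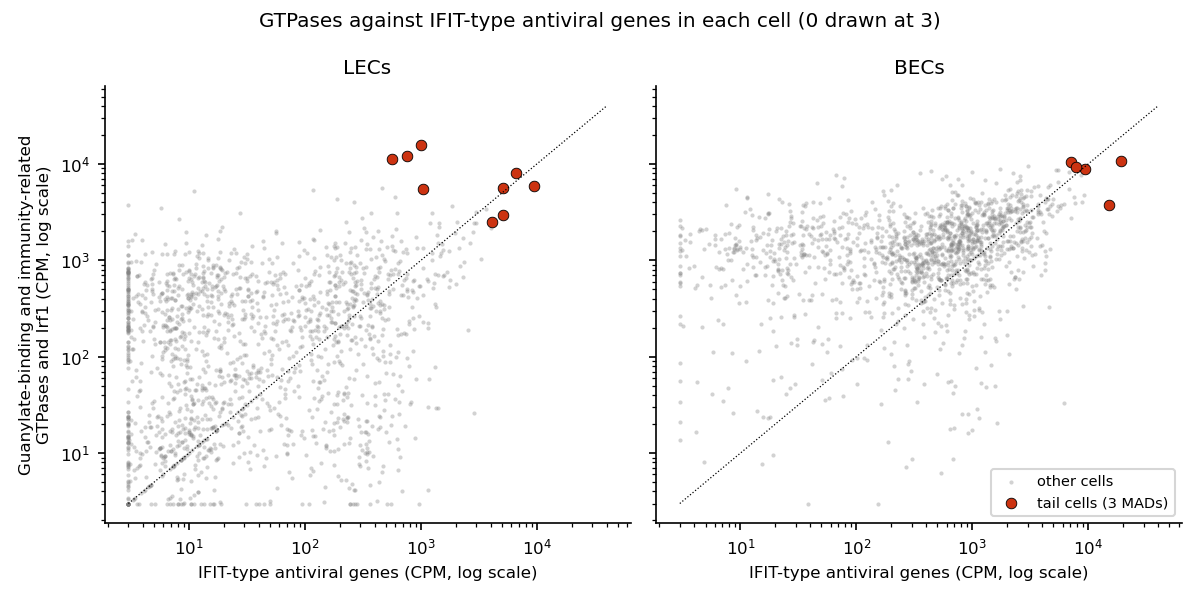
GTPase score (the 12 GTPases and Irf1) against the IFIT-type score in every LEC (left) and BEC (right), in CPM on log axes; red points are tail cells and the dotted line marks equal values. The 4 tail LECs far above the line drew most of their level from GTPases, with IFIT-type scores of 559 to 1033 CPM.

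Across all cells of a mouse the scores were weakly related. Thinned to 50000 reads, their Spearman correlation over the LECs of 1 mouse was 0.150 and 0.221 in the controls and 0.158 to 0.281 in the mutants, and over BECs 0.231 and 0.293 in the controls and 0.209 to 0.395 in the mutants. These cells share depth and library, and the correlations are a description.

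By gene, the tail LECs drew most on Iigp1 (8.42% of their level), Gbp7 (6.46%), Gbp4 (5.71%), Igtp (5.41%), Gbp2 (4.97%) and Ifit1 (4.78%). Iigp1, which oligomerizes on parasite vacuoles, had a mean of 1173 CPM in tail LECs and 24.0 CPM in the others, and Gbp4 of 795 and 10.5 CPM. Single tail LECs reached 4165 and 2350 CPM of Iigp1, and 2194, 1645 and 1317 CPM of Gbp4. The tail means of both genes rest mainly on these cells. Bst2, the leading member of other LECs with 18.4% of their level, made up 3.98% in the tail. In tail BECs the leading members were Rsad2 (12.2%), Iigp1 (6.85%), Ifi44 (6.10%), Ifit1 (6.00%), Ifit2 (5.26%) and Ifi47 (4.25%). Rsad2 had a mean of 2940 CPM in tail BECs and 91.1 CPM in the others, a mean that rests mainly on the 2 cells at 6908 and 5138 CPM. Mx1 had no read in any tail cell.

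In whole mice these genes, apart from Gbp4 in BECs, did not separate the genotypes. In LECs Iigp1 was at 30.2 and 10.8 CPM in the controls and at 15.8, 48.7, 29.3, 38.2 and 14.1 CPM in mutants 1 to 5. Gbp7 was at 70.6 and 34.7 CPM in the controls and at 51.6, 59.0, 69.8, 67.3 and 35.7 CPM in the mutants. Gbp2, at 36.9 and 23.6 CPM against 32.2, 37.2, 70.3, 49.9 and 24.9 CPM, reached its highest value in mutant 3. The groups overlapped in each of these GTPases. Igtp was at 43.9 and 17.2 CPM against 30.9, 39.5, 31.3, 25.05 and 39.3 CPM, and Gbp4 at 14.1 and 8.69 CPM against 17.9, 13.4, 24.9, 1.55 and 5.81 CPM. Ifit1 was at 26.6 and 3.20 CPM in the controls and at 20.9, 35.8, 21.9, 15.4 and 9.01 CPM in the mutants. For Igtp and Ifit1 control 1 lay above and control 2 below most mutants.

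In BECs, Iigp1 was at 226.4 and 232.5 CPM in the controls and at 195.0, 262.9, 261.4, 288.4 and 139.0 CPM in mutants 1 to 5. Rsad2 was at 99.8 and 129.2 CPM in the controls and at 70.2, 79.0, 70.1, 132.6 and 43.7 CPM in the mutants. Both overlapped between the genotypes. Ifit1 was at 53.7 and 79.2 CPM against 42.4, 57.0, 70.6, 68.0 and 31.8 CPM, and Ifit2 at 90.4 and 56.7 CPM against 31.3, 63.7, 40.1, 51.5 and 8.81 CPM. Ifi44 was at 43.1 and 84.1 CPM against 45.3, 69.8, 58.8, 50.6 and 16.8 CPM, and the GTPase Ifi47 at 101.5 and 103.1 CPM against 92.4, 85.7, 104.1, 123.9 and 56.9 CPM. These genes overlapped too, and mutant 5 was the lowest mouse in all 6.

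The tail cells did not carry the genes of immune cells. Over 12 immune markers the summed level had a median of 0 in tail cells of both classes, with the highest tail LEC at 61.0 CPM and the highest tail BEC at 4.51 CPM, against a 95th percentile of 195.6 and 67.4 CPM in other cells. Ptprc, Cd3e, Cd3g, Cd52, Itgam, Csf1r, Tyrobp and Nkg7 were at 0 in all 14 tail cells. Markers of LECs summed to a median of 7958 CPM in tail LECs and 8968 CPM in other LECs, and those of BECs to 9374 and 9640 CPM in tail and other BECs. Median reads were 308134 in tail LECs and 334685 in other LECs, and none of the tail LECs was cycling by its markers. Tail BECs had a median of 221686 reads and 3685 genes detected, against 259011 reads and 5511 genes in other BECs.

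Genes outside the list moved with it. At the limit of 3 MADs no mouse had 5 tail cells, so cells beyond 2 MADs were summed and compared with the other cells of the same mouse, in the mice that had at least 5 such cells, 6 for LECs and 5 for BECs. The members were left out of the fit. In LECs, 9 of 18485 genes were called, all higher (0.0487%), and in BECs 15 of 17569, all higher (0.0854%). The median gene was lower by 1.10 and 1.69 on the log2 scale in these sums of few cells. The called genes had a mean log2 CPM of 7.32 or more, and the shift at that level was not estimated. Cells beyond the limit also had fewer genes detected, a median of 5603 against 6178 in LECs and 4643 against 5535 in BECs. The part of this in the increases was not tested.

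In LECs beyond the limit, genes of antigen presentation by MHC class I were higher: Tap1 and Tap2, the peptide transporter, by 3.38 ± 0.42 and 2.42 ± 0.28, H2-K1 by 1.27 ± 0.15 and B2m, its light chain, by 1.20 ± 0.14 (adjusted p = 0.0057, 0.0037, 0.0037 and 0.0037). The mitochondrial nucleotide kinase Cmpk2 was higher by 3.37 ± 0.47, Ifitm3, which blocks viral entry, by 0.92 ± 0.12 and Ly6e by 0.67 ± 0.11 (adjusted p = 0.017, 0.012 and 0.0495). All of these were higher in 6 of 6 mice. Tap1, Cmpk2, Ifitm3 and Ly6e were called in 8, 5, 7 and 4 of 10 alternatives, and Tap2, H2-K1 and B2m in all 10. Of the 57 LECs beyond 2 MADs, 7 exceeded the 95th percentile of other LECs for BEC capillary markers. The same held for 7 by mural, 7 by fibroblast, 3 by immune and 0 by cycling markers. In the controls, Tap1 had a mean of 17.8 CPM in LECs and 122 CPM in BECs, and H2-K1 of 361 and 1432 CPM. The part of mixed cells in these differences was not tested.

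In BECs beyond the limit, the largest increases were those of Cmpk2 (log2 difference 3.18 ± 0.40) and Ifi203, a DNA-binding protein of the HIN-200 family (2.76 ± 0.37), both higher in 5 of 5 mice with an adjusted p of 0.0050. Cmpk2 lay between 442 and 1030 CPM in these cells and between 46.1 and 82.3 CPM in the others. The other genes named by size were Lgals9, Cldn5, S1pr1, Cxcl12, Ly6a, Cd300lg, Ly6c1 and Slc9a3r2, with log2 differences of 1.40 to 0.83, and Ly6e was higher by 0.76 ± 0.11. Of these, only Cmpk2 and Ifi203 were called in all 9 alternatives. Several of these, such as Cldn5 of tight junctions and the sphingosine receptor S1pr1, are genes of endothelium rather than of the interferon response. BECs beyond 2 MADs scored lower for venous markers (median 507 against 1923 CPM) and higher for capillary markers (7522 against 3639 CPM) than other BECs, and the part of this in the gene differences was not tested.

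Between the genotypes, few members changed when each mouse was taken as 1 sample, with reads scaled within a class as in the values by mouse of the tail genes above. In LECs, 1 of 35 members was called lower and 0 higher (edgeR quasi-likelihood test, adjusted p under 0.05), against 2.76% of 19758 genes called, 0.805% lower and 1.96% higher. DESeq2 called the same single member lower, against 4.56% of all genes. At an unadjusted p under 0.05 there were 2 members, and the median log2 fold change of the members was 0.11 against -0.01 for all genes. In BECs, 1 of 35 was called lower and 0 higher, against 2.12% of 19315 genes called, 0.611% lower and 1.51% higher. At an unadjusted p under 0.05 there were 9, and the median was -0.39 against 0.01. These shares of members, 2.86% each, lie near the background. The LEC median was 0.61 without control 1, -0.26 without control 2, -0.12 without the tail cells and -0.36 with plate series as a block or with mutant 5 as the only mutant. The BEC median stayed below 0 in every alternative and was -0.95 with plate series as a block and -0.96 with mutant 5 as the only mutant. With 2 control mice, a change that misses the threshold is not shown to be absent.

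**Figure D5:**
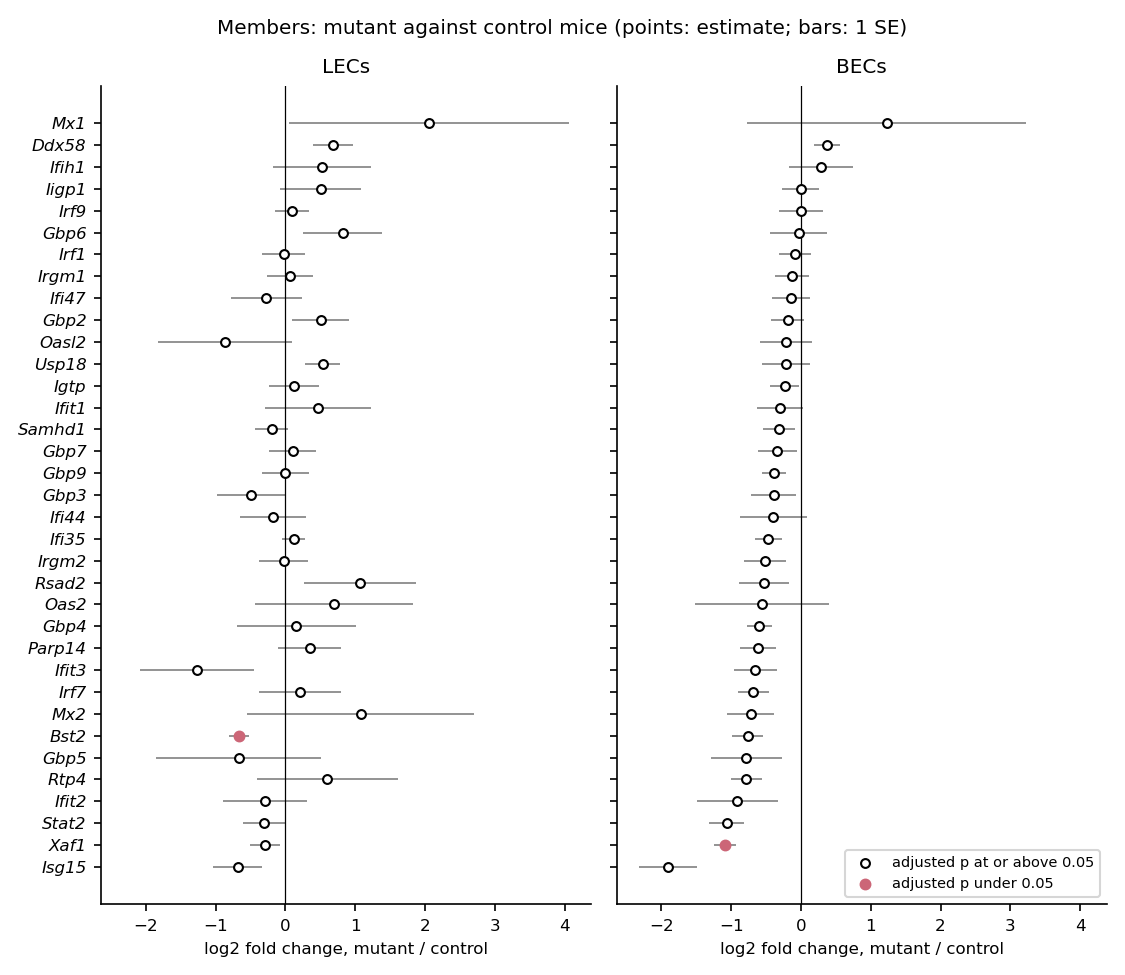
Log2 fold change of each member in mutant against control mice in LECs (left) and BECs (right), with bars of 1 SE; filled points have an adjusted p under 0.05. Bst2 in LECs and Xaf1 in BECs are filled, and 32 of 35 points lie below 0 in BECs against 14 in LECs.

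The member called in LECs was Bst2, the tetherin that holds budding virus at the membrane. It was at 247.6 and 301.3 CPM in the controls and at 161.7, 166.3, 164.1, 174.3 and 201.3 CPM in mutants 1 to 5, all below the controls. It fell by 0.66 ± 0.14 on the log2 scale (adjusted p = 0.0498, edgeR). The call was lost without any one of control 1, control 2 and mutants 1 to 4, and the adjusted p ran from 0.00020 to 0.93 over 18 alternatives. In BECs, Bst2 was at 366.9 and 479.4 CPM in the controls and at 186.3, 268.1, 246.2, 215.6 and 328.9 CPM in the mutants, and the log2 fold change of -0.76 ± 0.22 did not pass the test (adjusted p = 0.12).

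The member called in BECs was Xaf1, a partner and inhibitor of the apoptosis inhibitor XIAP. It was at 134.6 and 166.6 CPM in the controls and at 63.4, 70.9, 76.1, 67.3 and 77.9 CPM in mutants 1 to 5, without overlap. It fell by 1.08 ± 0.16 on the log2 scale (adjusted p = 0.016, edgeR), and the call was lost in 5 of 18 alternatives. These were the fit without control 2 (adjusted p = 0.081), the plate series as a block (0.28), mutant 5 as the only mutant (0.87), the replicate block (0.24) and first plates only (0.073). In LECs, Xaf1 was at 58.4 and 53.4 CPM in the controls and between 35.8 and 58.2 CPM in the mutants, so that the groups overlapped (log2 fold change -0.29 ± 0.21, adjusted p = 0.48).

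Isg15, the ubiquitin-like modifier, had the largest negative estimate in BECs. It was at 46.5 and 52.0 CPM in the controls and at 6.38, 14.6, 15.5, 8.54 and 20.7 CPM in the mutants, without overlap. Its log2 fold change of -1.90 ± 0.42 did not pass the test (adjusted p = 0.060). In LECs it was at 15.8 and 12.7 CPM in the controls and at 6.27, 8.49, 9.44, 7.42 and 12.6 CPM in the mutants, and its log2 fold change there was -0.68 ± 0.35 (adjusted p = 0.32).

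In BECs, 10 of 35 members had all mutants below both controls, against 11.5% of all genes, and 1 had all mutants above both, against 13.6%. The 10 were Bst2, Gbp4, Ifit3, Irf7, Irgm2, Isg15, Mx2, Rtp4, Stat2 and Xaf1. Among them Stat2 was at 135.1 and 107.1 CPM in the controls and between 38.4 and 73.4 CPM in the mutants (log2 fold change -1.06 ± 0.25, adjusted p = 0.070), and Irf7, the factor that amplifies type I interferon, at 159.6 and 145.8 CPM against 67.7 to 121.9 CPM (-0.68 ± 0.22, adjusted p = 0.15). DESeq2 called 7 members lower in BECs, Isg15, Gbp4, Irf7, Bst2, Stat2, Xaf1 and Rtp4, against 3.88% of all genes called lower by that tool.

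In LECs, 2 of 35 members, Bst2 and Isg15, had all mutants below both controls, against 11.7% of all genes, and 2, Ddx58 and Usp18, had all mutants above, against 13.8%. Neither share exceeds the background. Ddx58, the RNA sensor RIG-I, was the only member above both controls in all mutants of both classes, at 31.3 and 18.8 CPM in LECs of the controls and 34.6 to 53.1 CPM in those of the mutants, and at 71.8 and 51.4 against 72.3 to 90.5 CPM in BECs. Its log2 fold changes of 0.68 ± 0.28 and 0.38 ± 0.19 did not pass the test (adjusted p = 0.23 and 0.31).

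Whether the effect of genotype differed between LECs and BECs depended on the tool for 2 members. In the edgeR test of that difference, LEC minus BEC, 0 of 35 members were called, against 0.187% of 21927 genes called, 0.155% below 0 and 0.0319% above 0, and 6 members had an unadjusted p under 0.05. DESeq2 called 2, Isg15 and Xaf1, whose changes were less negative in LECs, against 5.64% of all genes, so that the members' share of 5.71% was that of the background. The estimate was above 0, the LEC change being the higher one, in 31 of 35 members, with a median of 0.55 against -0.03 for all genes.

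Among the 79 further pathway genes, 1 of 70 tested was called in LECs and 2 of 70 in BECs, against the 2.76% and 2.12% of all genes given above, so that the list as a whole did not stand apart. Dhx58, the sensor LGP2 of the RIG-I family, was at 17.5 and 23.7 CPM in LECs of the controls and at 52.5, 51.6, 63.8, 47.4 and 52.8 CPM in mutants 1 to 5 (log2 fold change 1.38 ± 0.22, adjusted p = 0.022). In BECs, Psmb9, an immunoproteasome subunit, was at 160.3 and 157.2 CPM in the controls and at 56.9, 69.9, 73.3, 77.0 and 75.9 CPM in the mutants (-1.17 ± 0.16, adjusted p = 0.012). Socs3, a feedback inhibitor of JAK kinases, was at 154.3 and 93.4 CPM against 32.6, 33.8, 35.6, 46.2 and 63.9 CPM (-1.55 ± 0.30, adjusted p = 0.042). All 3 genes showed no overlap between the groups. This held for 13.8% of all genes with mutants higher in LECs and 11.5% with mutants lower in BECs. Of 18 alternatives, the call was lost in 5 for Dhx58, in 5 for Psmb9 and in 12 for Socs3.

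The summed level also varied with the kind of vessel, scored from marker genes. Cells were assigned to the kind with the highest marker score, and in 376 LECs and 208 BECs the top scores lay close together, so the kinds are ranges and not separate types. Outside the tail, the Ptx3 capillary and collecting marker lists had higher medians in BECs than in LECs, 3024 against 1273 CPM and 2284 against 1576 CPM. They do not mark LECs alone, and the part of BEC transcripts in the differences between LEC kinds was not tested. LECs scoring highest for Ptx3-positive capillary markers had a lower median than those scoring for collecting vessels in all 7 mice. Their medians were 792 and 909 CPM in the controls and 492 to 673 CPM in the mutants, against 1224 and 1038 CPM, and 901 to 1010 CPM, in collecting-scoring LECs. In capillary-scoring LECs the medians were 1010.5 and 1023 CPM in the controls and 571 to 1080 CPM in the mutants. In valve-scoring LECs they were 989 and 833 CPM against 559 to 937 CPM. The genotypes overlapped in capillary-scoring and valve-scoring LECs, but not in the other kinds. The share of LECs scoring as Ptx3 capillary was 15.3% and 12.6% in the controls and 19.6% to 42.8% in the mutants. LECs with at least 3 of 7 cycling markers had a median of 598 CPM, against 833 CPM in the others. Such cells numbered 5 in control 1 and 24 to 92 per mutant, while 171 of 175 LECs of control 2 were not cycling. Without cycling LECs the medians were 1014 and 977 CPM in the controls and 726 to 860 CPM in the mutants. The part of these shifts in the lower median of mutant LECs was not tested.

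In BECs the venous-scoring cells differed in this respect from the others. Their median was 2473 and 2062 CPM in the controls and 2124 to 2551 CPM in the mutants, and the groups overlapped. In arterial-scoring BECs it was 3973 and 4201 CPM in the controls and 1995 to 3215 CPM in the mutants, and in capillary-scoring BECs 3978 and 3584 CPM against 2174 to 3499 CPM, both without overlap. Venous-scoring cells made up 17.0% and 12.1% of BECs in the controls and 41.4% to 55.7% in the mutants, and the part of this shift in the lower summed level of mutant BECs was not tested. The 9 tail LECs fell into all 4 kinds, and 4 of the 5 tail BECs scored as capillary.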

How the data were processed

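Ear skin endothelial cells were sorted on Podoplanin and CD31 and sequenced with Smart-Seq2. The authors aligned reads to GRCm38 with TopHat2 (2.1.1) and counted them per gene with featureCounts, per the submitters' notes and file headers; the annotation release and strand setting were not given in the sources used here. The deposited values are raw read counts per gene and well. Every count column was mapped to a labelled sample (0 left unmapped).

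A cell needed 200 genes and 50000 reads, with mitochondrial reads at or under 10%, and the 92 ERCC spike-ins were left out. For the tail, cells were thinned to 50000 reads. No mouse had 5 cells beyond 3 MADs, so the planned limit of 2 MADs was used to compare tail with other cells. Counts were summed per mouse and class, both plates of mutants 3 and 5 together, and tested with edgeR 4.0.16 (quasi-likelihood, Benjamini-Hochberg adjusted p under 0.05), with mouse as a block for LECs against BECs and for tail against other cells. DESeq2 1.42.0 in R 4.3.3 was an alternative, as were other filters, limits and left-out mice. The edgeR steps were tested on simulated data. Of genes changed by 1 on the log2 scale, 16% were called in LECs and 8% in BECs. Of genes changed by 2, it was 74% and 62%, and of unchanged genes 0.027% and 0.016%.

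Members and lists were chosen with earlier results of these data known. Values by mouse were given for members called between genotypes, the 6 leading members of each tail and the 5 largest LEC-BEC differences. Other genes named were called pathway genes and the 10 largest called differences of tail cells (mean log2 CPM 3 or more) that moved alike in every mouse, except predicted genes; Isg15, Stat2, Irf7, Xaf1 in LECs and Ddx58 were chosen after their values were seen. Same-numbered mice did not deviate together (r from -0.05 to 0.11), so numbers were not taken as pairs. Promoters came from RefSeq, GRCm38.p6. A further gene is not reported here.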

Additional observations from a re-analysis of the deposited data

Results flagged for a closer look

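Oasl2 in LECs stood at 3.26 CPM in mutant 2, while the other 4 mutant mice lay between 0.516 and 1.03 CPM. The gap to the nearest mouse was 0.813 of the whole range, above Dixon's critical value of 0.71 for 5 samples. It was the 1 such value in 38 sets of 5 mice examined, which is no more than chance would give.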

How the results depend on the processing

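The lower summed level of mutant BECs kept its direction in all 10 alternatives, between 0.718 and 0.803 of the controls when 1 mouse was left out. In LECs the ratio was 1.03 without Bst2 and between 0.825 and 1.06 without 1 mouse, lowest without control 2 and highest without control 1. The difference in tail share, 0.707 percentage points in LECs, was 0.230 at 2 MADs, 0.0551 at 4 MADs, 0.326 without Bst2 and 1.36 by the mean of log2 values, and in BECs it was -1.98 at 2 MADs against 0.502. Leaving out 1 mouse gave 0.609 to 0.816 in LECs and 0.219 to 0.627 in BECs. DESeq2 called 2472 genes in LECs, 2238 in BECs and 1237 for the difference between them, with 7 members in BECs and 2 for the difference, and 2881 and 3540 genes in tail LECs and BECs. Without 1 mouse, 153 to 546 genes were called in LECs, 159 to 586 in BECs, 0 to 20 for the difference (23 without cells high in both marker sums), 5 to 9 in tail LECs and 2 to 44 in tail BECs, with 0 to 1 members in LECs and 0 to 3 in BECs. No member was called (0) in LECs with no expression filter, from first plates or without cells high in both marker sums, nor (0) in BECs from first plates. With DESeq2 size factors 16 and 40 genes were called in tail LECs and BECs, and 5 in tail BECs with no filter. The cause of these shifts was not tested.

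With the replicate number as a block, which leaves fewer mice, 4 genes and 0 members were called in LECs and 0 genes and 0 members in BECs. Same-numbered mice share only a number (r -0.05 and 0.03 in LECs, 0.03 and 0.11 in BECs), so this is not read as a weaker effect. With the plate series as a block, 160 genes and 0 members were called in LECs and 37 genes and 0 members in BECs. Chosen after seeing the data, mutant 5 alone against both controls gave 3 genes and 0 members in LECs and 0 genes and 0 members in BECs, and control mice alone gave 648 genes and 13 members between LECs and BECs. These last fits had fewer samples.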
